A study of Drosophila melanogaster with 24 samples.

Results

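The pair-rule genes of the fly embryo were followed across 6 genotypes in RNA-seq of whole Drosophila melanogaster embryos. They are the 9 genes h, eve, run, ftz, odd, prd, slp1, slp2 and opa, chosen by name as the textbook set from the 17559 gene identifiers of the count table, and all 9 were found. The rule holds no threshold on a measured value. The study asked what the histone deacetylase HDAC3 does in the early embryo and which of its functions need catalysis or the corepressor SMRTER. Embryos were 2 to 4 h old, and every genotype had 4 libraries, 24 in all. Control embryos came from mothers with the maternal driver alone (tub-GAL4/+), a GAL4-VP16 line active in the female germline. In HDAC3 shRNA embryos the mothers' driver also expressed a hairpin RNA that targets HDAC3. The 4 rescue genotypes carried driver and hairpin together with a transgene resistant to the hairpin, in which HDAC3 under its own promoter encoded the WT, Y303F, K26A or HEBI protein, all placed at the same landing site (attP40). Driver and hairpin are therefore common to all genotypes except Control, which has the driver only. According to the study, the mutant proteins have reduced catalysis, HEBI binds SMRTER poorly, restoration of HDAC3 protein in the rescues is incomplete, and rescue Y303F embryos also hold transcripts of the endogenous gene, so values of that genotype do not isolate the Y303F protein. Each library was made from a pool of whole embryos, in which fewer cells that express a gene and less RNA per cell cannot be told apart.

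Pair-rule genes are the layer of the segmentation cascade that turns broad maternal and gap gene domains into a periodic pattern. Their products are transcription factors, most of them made in stripes along the blastoderm, and they cross-regulate each other before they set the stripes of the segment polarity genes. h, eve and run are classed as primary pair-rule genes because maternal and gap factors place their stripes directly, ftz and odd join them early, prd and the sloppy paired pair slp1 and slp2 resolve later, and opa is expressed broadly as a late temporal input. Hairy is a repressor that recruits the corepressor Groucho, and SMRTER with HDAC3 is a different corepressor complex that also serves repressors of the early embryo.

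The genes lie on the X chromosome and on both large autosomes. Coordinates are from the Ensembl release 115 annotation of BDGP6.54, and the count table was made on dm6. h (FBgn0001168, listed there as hry) spans 3L from 8675759 to 8679253, eve (FBgn0000606) 2R from 9979319 to 9980795, and run (FBgn0003300) X from 20690670 to 20697321. ftz (FBgn0001077) spans 3R from 6864324 to 6866244, in the Antennapedia complex, and opa (FBgn0003002) 3R from 4852813 to 4869979. On 2L lie odd (FBgn0002985, 3604224 to 3606756), slp1 (FBgn0003430, 3825675 to 3827099), slp2 (FBgn0004567, 3836840 to 3839185) and prd (FBgn0003145, 12082995 to 12085827). slp1 and slp2 are adjacent on the plus strand, 9740 bases apart, and each has a single exon. Exons of eve and prd are partly shared with antisense genes. For eve 235 of the 1406 exon bases lie in asRNA:CR43948 and for prd 179 of 2695 in asRNA:CR44592, both on the opposite strand. Those antisense genes held 80 and 8 counts in all 24 libraries together, against 354 or more for eve and 235 or more for prd in each single library.

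Library totals ran from 9987223 to 26573692 counts with a median of 19628152, so that each member was measured on 107 (slp2) to 8246 (opa) counts in every library and none was lost to the filter on low counts, which left 10003 genes. HDAC3 itself was at 0 counts in all 24 libraries. Its exons are annotated also as CG45100, which was at 0 as well, so that neither the depletion nor the transgenes could be checked in this table and genotypes are as labelled. Levels are given as CPM, counts per 1000000 counts of the library after scaling of library totals by trimmed mean of M-values (TMM). Replicate numbers are shared by the genotypes, and libraries of the same number deviated together from their genotype means, so each comparison is also given with the replicate number as a block, in which libraries of the same number are set against each other. What a number stands for is not given in the labels.

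Libraries of replicates 1 and 2 differed from replicates 3 and 4 in markers of developmental stage, with overlap between single libraries. Early blastoderm genes (nullo, bnk, slam, Z600 and halo, with Sry-alpha at 0 in all libraries) summed to 1474 to 3861 CPM in replicates 1 and 2 and 728 to 2333 CPM in replicates 3 and 4. Rescue K26A replicate 4, at 2333 CPM, was above replicates 1 and 2 of that genotype, at 2269 and 1822 CPM. All 5 that were tested were lower in replicates 3 and 4, 4 of them past the test for replicate number. Maternal RNAs that are cleared early (smg, png, plu, gnu, twe, bcd and osk) were lower there in 7 of 7. Late embryo genes of muscle and cuticle, which a collection of this age should hardly hold, were found in every library and were highest in Control replicate 3, at 1544 CPM summed over 10 genes against 130 to 462 CPM in the other Control libraries. In HDAC3 shRNA they summed to 4.74 to 147 CPM, and 10 of 10 were called lower than in Control both without and with the replicate block, where 6.97% and 17.3% of all genes were. TwdlM, TwdlB and TwdlL were at 0 in 3 to 5 of the 24 libraries. Follicle cell and eggshell genes, a sign of ovary tissue, stayed at 0.561 to 5.15 CPM summed over 7 genes except in rescue Y303F replicate 1, at 31.2 CPM. The part of stage and of these cells in the results below was not tested.

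Per kilobase of exon that no other gene shares, the members differed in level. ftz had the highest median over the 24 libraries, 60.3 CPM per kb, followed by opa at 58.6, eve at 54.6 and slp1 at 50.4 CPM per kb. The order among these 4 was not fixed, since ftz was above opa in 19 of 24 libraries, opa above eve in 10 and eve above slp1 in 11. odd had 38.5 CPM per kb, below slp1 in 23 of 24 libraries and above the next gene in all 24. prd, h and run shared a level of 27.2, 26.7 and 26.7 CPM per kb, with prd above h in 13 libraries and h above run in 14. slp2 was lowest in every library, with a median of 9.73 CPM per kb, although its neighbour slp1 is among the upper 4.

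Among the primary genes, h encodes a basic helix-loop-helix repressor. Its level in Control replicates 1 to 4 was 59.99, 39.00, 67.1 and 68.98 CPM, and in HDAC3 shRNA 23.3, 22.4, 61.3 and 73.2 CPM. Replicates 1 and 2 of HDAC3 shRNA were below every Control library, whereas replicate 3 lay within the Control range and replicate 4 above it. Rescue WT stood at 52.96, 36.8, 83.7 and 77.3 CPM and rescue Y303F at 61.99, 29.6, 91.6 and 90.6 CPM. Rescue K26A had 38.6, 31.2, 119 and 112 CPM and rescue HEBI 62.5, 46.5, 90.5 and 86.1 CPM. The Control range therefore lay between the low and the high pair of rescue K26A libraries and overlapped the other rescues.

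eve, a homeodomain repressor that places the odd-numbered parasegments, was the flattest gene over Control, at 74.4, 56.95, 61.2 and 67.6 CPM in replicates 1 to 4. HDAC3 shRNA libraries held 30.8, 23.4, 45.8 and 88.3 CPM, so that 3 of them were below and 1 above all Control libraries. The rescue WT values were 54.5, 39.8, 85.95 and 76.8 CPM and those of rescue Y303F 61.2, 36.5, 77.7 and 111 CPM. For rescue K26A they were 38.1, 30.8, 101 and 138 CPM, the widest spread of any genotype for this gene, and for rescue HEBI 66.6, 58.7, 90.5 and 100.4 CPM. Only in Control were replicates 3 and 4 of eve not both above replicates 1 and 2.

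run encodes a Runt-domain factor, of the family that partners with the Big brother proteins. Control replicates 1 to 4 were at 86.8, 54.9, 102 and 89.9 CPM and HDAC3 shRNA at 31.6, 23.7, 70.1 and 89.4 CPM. All 4 knockdown libraries were below the Control library of the same number, the last by a small margin. In rescue WT run was measured at 60.5, 45.1, 124 and 106 CPM, in rescue Y303F at 69.1, 39.5, 133 and 118 CPM, in rescue K26A at 42.4, 33.5, 153 and 155 CPM and in rescue HEBI at 80.8, 53.5, 131 and 127 CPM. Replicates 3 and 4 of each rescue exceeded every Control library.

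ftz, a homeodomain protein that acts together with the nuclear receptor Ftz-F1, had 102.5, 77.9, 132 and 154 CPM in Control and 40.9, 31.5, 91.6 and 173 CPM in HDAC3 shRNA (replicates 1 to 4). The knockdown libraries ran from below to above the whole Control range. Corresponding values were 87.4, 59.6, 163 and 176 CPM in rescue WT and 94.5, 44.5, 182 and 224.5 CPM in rescue Y303F. K26A libraries held 56.6, 48.3, 234 and 290.0 CPM and HEBI libraries 111.5, 81.1, 175.5 and 211 CPM. The highest ftz level of the series, in rescue K26A replicate 4, was 9.21 times the lowest, in HDAC3 shRNA replicate 2.

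odd, a zinc finger repressor, was at 89.4, 59.5, 114 and 129 CPM in the 4 Control libraries. HDAC3 shRNA held 33.5, 28.6, 81.7 and 126 CPM, each value lower than the Control value of the same number. With the WT transgene odd stood at 76.4, 50.1, 146 and 143 CPM, with Y303F at 80.1, 51.2, 165 and 174 CPM, with K26A at 51.4, 43.2, 204 and 207 CPM and with HEBI at 91.1, 71.7, 159 and 159 CPM. Rescue K26A again enclosed the Control range from both sides.

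Of the later genes, prd encodes a protein with a paired domain and a homeodomain that activates segment polarity genes. It was counted at 71.6, 44.2, 101 and 115.5 CPM in Control and 24.3, 18.97, 65.1 and 114 CPM in HDAC3 shRNA, lower at all 4 numbers. Rescue WT gave 56.5, 33.4, 109.8 and 110.0 CPM and rescue Y303F 61.2, 24.2, 118 and 134.5 CPM. In rescue K26A the values were 27.4, 24.6, 191 and 159.6 CPM and in rescue HEBI 61.9, 49.8, 124 and 117 CPM. prd had the second largest range of the 9 genes, 10.1-fold from the lowest to the highest library.

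slp1 and slp2 encode forkhead proteins with overlapping roles. For slp1, Control replicates 1 to 4 held 60.4, 53.4, 101 and 133 CPM and HDAC3 shRNA 23.4, 24.8, 77.4 and 113 CPM. Both genes were lower in the knockdown at all 4 numbers. slp1 in rescue WT was at 49.9, 52.1, 121 and 130.3 CPM, in rescue Y303F at 54.9, 45.8, 138.5 and 168 CPM, in rescue K26A at 28.7, 35.5, 152 and 161 CPM and in rescue HEBI at 62.8, 66.2, 136 and 145 CPM. For slp2, Control was at 16.6, 11.9, 39.02 and 42.2 CPM and HDAC3 shRNA at 6.24, 5.998, 32.3 and 29.1 CPM. The ratio between the high and the low pair of libraries was wider than for slp1 in each genotype. slp2 was measured in rescue WT at 12.8, 8.26, 58.01 and 41.8 CPM, in rescue Y303F at 16.5, 16.1, 58.9 and 42.6 CPM, in rescue K26A at 5.97, 6.67, 51.5 and 42.6 CPM and in rescue HEBI at 14.5, 15.7, 65.2 and 50.8 CPM. Rescue K26A replicates 1 and 2 lay within 1 CPM of the knockdown level of slp2 in the same replicates, whereas rescue Y303F was close to or above the Control library of the same number.

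opa encodes a zinc finger protein of the Zic family that is made throughout the segmented trunk rather than in stripes. Control libraries 1 to 4 had 177, 107, 238.5 and 224 CPM, and HDAC3 shRNA 46.5, 40.4, 168 and 250.0 CPM. Replicate 4 of the knockdown was the only one above its Control library, and above every Control library. Rescue WT was at 114, 64.7, 278 and 227 CPM, rescue Y303F at 138, 60.5, 274 and 253 CPM, rescue K26A at 61.6, 48.9, 368 and 324 CPM and rescue HEBI at 143, 101, 313 and 269 CPM. In absolute terms opa took more counts per library than any other member at the median, 172 CPM.

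**Figure D1:**
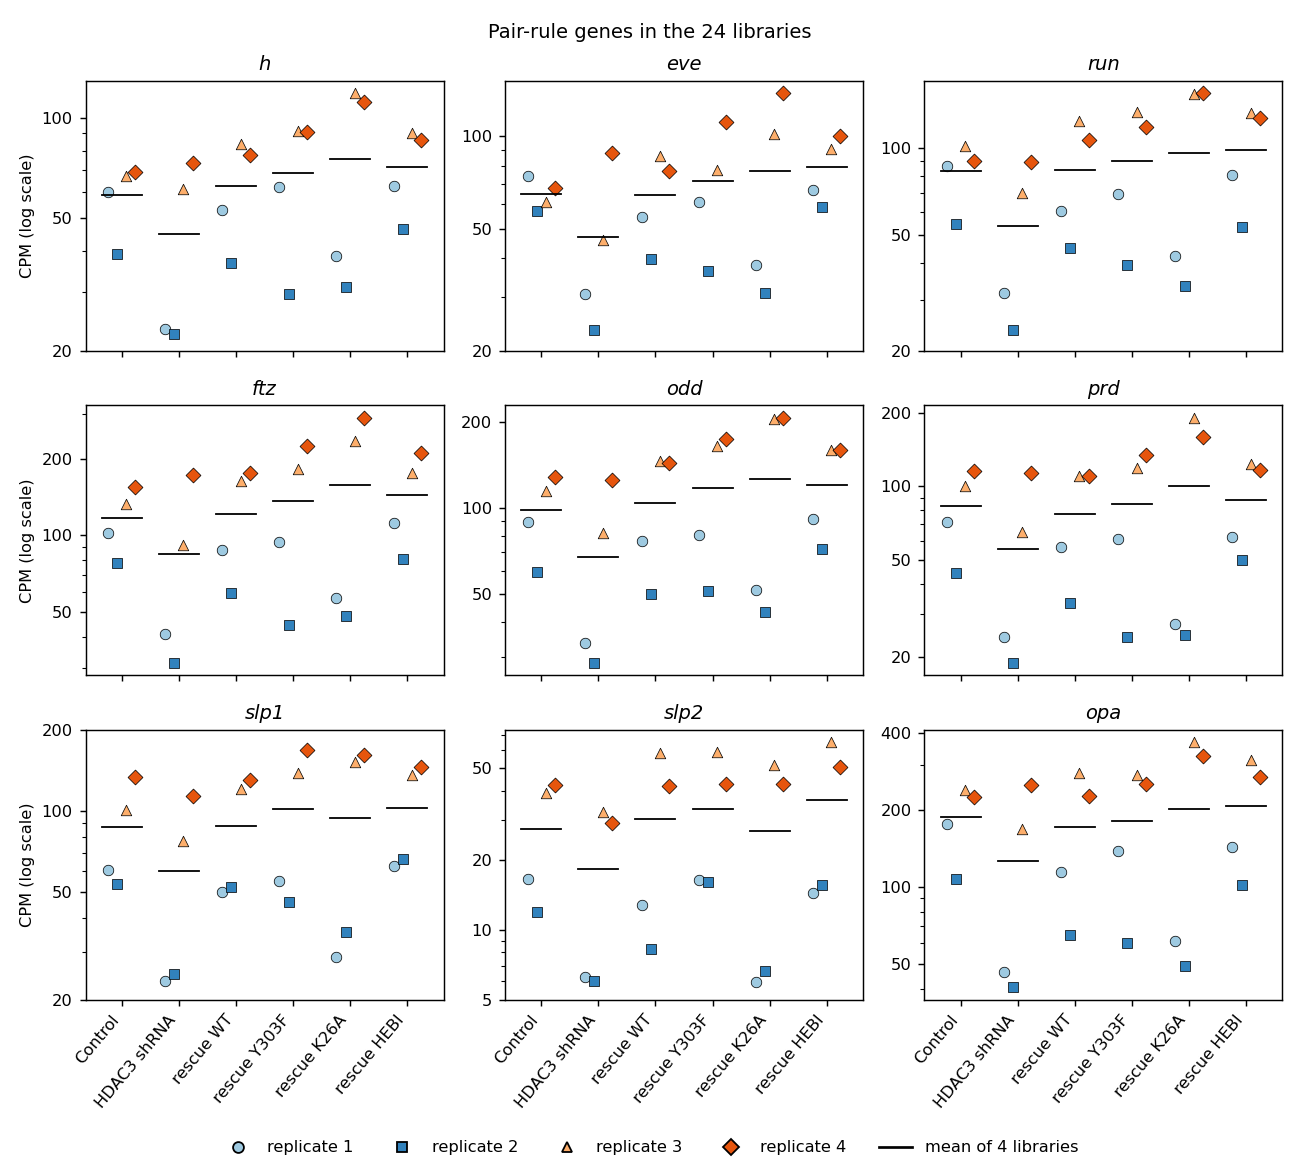
CPM of each pair-rule gene (log scale) in the 24 libraries by genotype, with colour and shape for the replicate number and a line at the mean of 4 libraries. Replicates 1 and 2 of HDAC3 shRNA and of rescue K26A lie below every Control library in all 9 panels, as in 33% and 26.6% of all genes. Replicates 3 and 4 of rescue Y303F, K26A and HEBI lie above every Control library in all 9, as in 15.1%, 13.1% and 14.7% of all genes.

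To ask whether loss of HDAC3 changes these genes, HDAC3 shRNA was set against Control. Replicates 1 and 2 of the knockdown were below every Control library for 9 of 9 members, a position that 33% of the 10003 genes tested also took. Calls required 2-fold or more and an adjusted p (Benjamini-Hochberg) no higher than 0.05. Without the block, edgeR's quasi-likelihood test called 0 of 9 members, where 8.37% of all genes were called and 6.97% were called lower. The fitted values were lower for all 9, from -0.38 (h) to -0.63 (run) on the log2 scale with a median of -0.54, against a median of 0.013 over all genes. Their SEs were 0.44 to 0.79 and their adjusted p 0.462 to 0.671, and 0 of 9 were under an unadjusted p of 0.05 either here or in DESeq2, which also called 0. Single libraries moved these values, which ran from -0.16 (h) to -0.44 (run) without HDAC3 shRNA replicate 1, from -0.20 (h) to -0.43 (run) without replicate 2, from -0.45 (eve) to -0.98 (slp2) without replicate 3 and from -0.76 (h) to -1.24 (prd) without replicate 4, with 0 of 9 called in each case. The spread of HDAC3 shRNA replicates was of the size of the means, 47.1 ± 29.0 CPM for eve against 65.0 ± 7.62 CPM in Control and 126 ± 101 CPM for opa against 187 ± 59.2 CPM (SD, n = 4).

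With the replicate block the same comparison had SEs of 0.20 to 0.29 and all 9 members passed an adjusted p of 0.05. At that rule 26.9% of all genes were lower and 27% higher, so that more than 1 in 4 of all genes shared this result. None reached 2-fold, and 0 of 9 were called where 20.1% of all genes were. opa had the largest fall, -0.92 (SE 0.28, adjusted p = 0.0102), and h the smallest, -0.54 (SE 0.20, adjusted p = 0.0325). Among the primary genes eve fell by 0.68 (adjusted p = 0.0283) and run by 0.83 (adjusted p = 0.00301), and ftz and odd by 0.76 and 0.75 (adjusted p = 0.0133 and 0.00526). The later genes prd, slp1 and slp2 fell by 0.85, 0.77 and 0.80 (adjusted p = 0.0179, 0.00366 and 0.00445). The values of the primary and of the later genes overlapped. Without HDAC3 shRNA replicate 1 the number past the adjusted p dropped to 4, without Control replicate 2 to 5 and without Control replicate 1 to 6, and it was 7 to 9 without any other single library. The values lower at all 4 numbers belonged to run, odd, prd, slp1 and slp2, 5 of 9 members, where 30.4% of all genes were lower at all 4. Stage markers moved in the same comparison. Maternal RNAs cleared early passed as higher in 6 of 7 (median 0.87), and 1 of 5 early blastoderm genes passed as lower (median -0.31). Of 4 follicle cell and eggshell genes tested 0 passed, and 0 were under an unadjusted p of 0.05 in edgeR. The part of stage in the lower pair-rule values was not tested.

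The 2 fits differ in that the block takes out a shift of each replicate number that all genotypes share. It does not describe a knockdown effect that differs between numbers, so the replicate pairs were also fitted alone. In replicates 1 and 2 alone, 9 of 9 members were called lower in HDAC3 shRNA (n = 2 per genotype), where 14.5% of all genes were. The values ran from -1.14 for h (SE 0.34, adjusted p = 0.0344) and -1.24 for slp2 (SE 0.24, adjusted p = 0.00610) to -1.73 for opa (SE 0.41, adjusted p = 0.0136), with a median of -1.31, and slp1 had the smallest adjusted p, 0.000882 at -1.26. In replicates 3 and 4 alone, 0 of 9 were called, where 7.62% of all genes were, and 0 were under an unadjusted p of 0.05. There the values ran from -0.44 for slp2 (SE 0.21, adjusted p = 0.189) to 0.014 for eve (SE 0.29, adjusted p = 0.976), with a median of -0.27. For opa the mean went from 142 CPM in Control to 43.4 CPM in HDAC3 shRNA in replicates 1 and 2, and from 231 to 209 CPM in replicates 3 and 4. For eve the corresponding means were 65.7 and 27.1 CPM in the first pair and 64.4 and 67.1 CPM in the second.

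Whether the knockdown effect itself differed between the pairs was tested as an interaction over all 24 libraries. The estimate was positive for all 9 members, from 0.82 (slp2, SE 0.32) to 1.56 (opa, SE 0.49). In edgeR 0 of 9 passed after adjustment, where 0.03% of all genes did, with adjusted p from 0.117 (slp1) to 0.319 (prd). Without adjustment the p of all 9 was under 0.05, from 0.00202 for slp1 to 0.0384 for prd, a result that 8.38% of all genes shared in this direction. Without HDAC3 shRNA replicate 3, 1 member passed the adjusted test. Early blastoderm genes also differed between the pairs, since in Control they summed to 3861 and 3133 CPM in replicates 1 and 2 and 803 and 728 CPM in replicates 3 and 4, and in HDAC3 shRNA to 1947, 1474, 867 and 1380 CPM. The part of developmental stage in this difference was not tested.

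**Figure D2:**
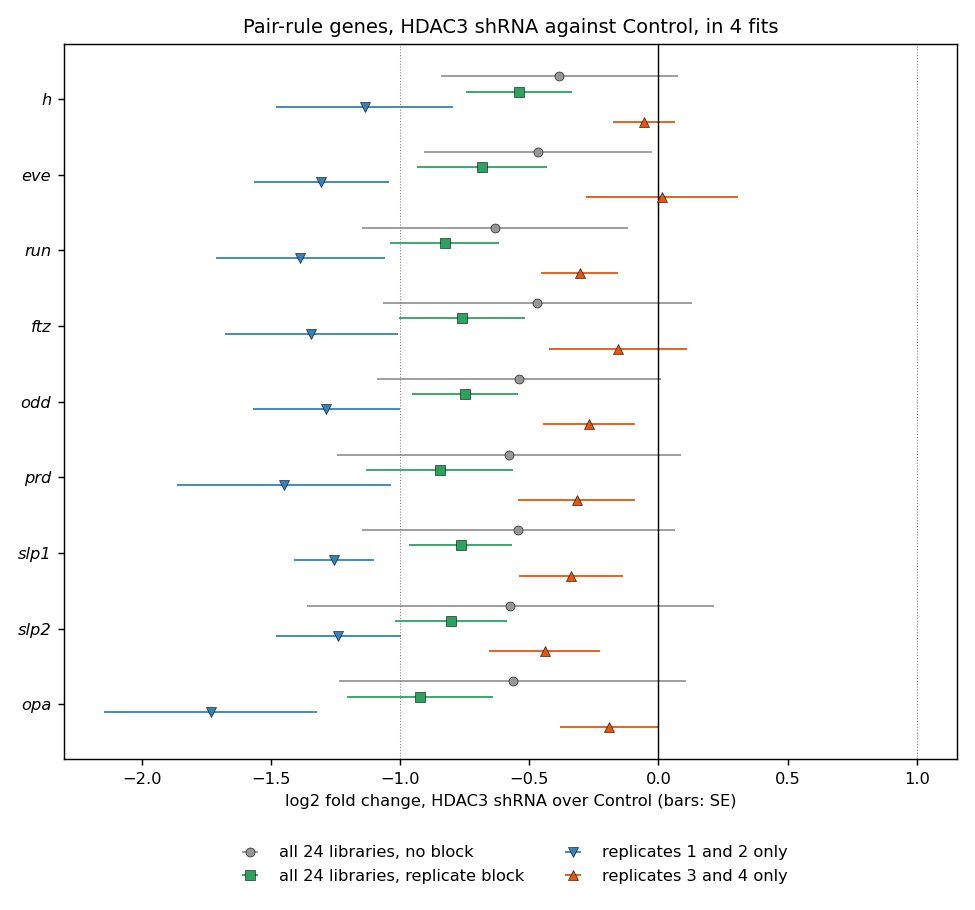
Log2 fold change of each pair-rule gene in HDAC3 shRNA over Control (x axis, bars are SE, dotted lines at 2-fold) in the fit without a block, with the replicate block, and in replicates 1 and 2 or 3 and 4 alone. The values of replicates 1 and 2 are beyond 2-fold in all 9 genes, from -1.14 to -1.73, and those of replicates 3 and 4 lie between -0.44 and 0.014.

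Each rescue was then compared with HDAC3 shRNA to ask whether the transgenes raise the genes again. All 4 rescues share the same HDAC3 shRNA libraries, and all genotypes enter the same fit and its estimate of spread, so the 4 comparisons are not independent of each other or of the one above. Without the block 0 of 9 members were called in any of them, in edgeR or in DESeq2, and 0 had an unadjusted p under 0.05. All 9 fitted values were higher in each rescue, with medians of 0.53 in rescue WT, 0.69 in Y303F, 0.74 in K26A and 0.78 in HEBI. The shares of all genes called were 1.04%, 0.71%, 0.19% and 1.68%.

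With the block, 6 of 9 members passed the adjusted p in rescue WT against HDAC3 shRNA, where 16.8% of all genes were higher by that rule. odd (0.73, SE 0.20, adjusted p = 0.0117), slp1 (0.73, SE 0.20, adjusted p = 0.0102), slp2, run, ftz and h rose, and eve (0.55, adjusted p = 0.0956), prd (0.65, adjusted p = 0.0879) and opa (0.58, adjusted p = 0.114) missed the threshold. The count fell to 1 without HDAC3 shRNA replicate 1 and to 3 without rescue WT replicate 3. In replicates 1 and 2 alone slp1 was called (1.10, adjusted p = 0.00771) and no other member, where 3.3% of all genes were called higher, and 9 of 9 were higher at an unadjusted p under 0.05, as were 17.7% of all genes, and in replicates 3 and 4 alone 0 were called against 0.924% of all genes, with 3 of 9 higher at an unadjusted p under 0.05 (11.1% of all genes).

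In rescue Y303F 7 of 9 passed, where 17.7% of all genes were higher, and slp2 was called at 1.04 (SE 0.22, adjusted p = 0.00124), a call shared in that direction by 6.59% of all genes. odd and slp1 rose by 0.87 and 0.86 (adjusted p = 0.00317 and 0.00277), whereas prd and opa stood at 0.68 and 0.67 with adjusted p = 0.0667 and 0.0664. The count dropped to 4 without HDAC3 shRNA replicate 1 or without rescue Y303F replicate 1. odd, slp1 and slp2 were called in replicates 1 and 2 alone (1.10, 1.08 and 1.42, where 8.3% of all genes were called higher), and 9 of 9 were higher there at an unadjusted p under 0.05 (19.3% of all genes). In replicates 3 and 4 no member was called, where 1.71% of all genes were, and 5 of 9 were higher at an unadjusted p under 0.05 (11.7% of all genes).

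Rescue K26A had the smallest number past the adjusted p, 4 of 9 (h, run, ftz and odd), where 3.68% of all genes were higher. Its median over the 9 members was 0.70, against 0.69 in rescue WT, so the number passing does not rank the size of the rise. odd rose by 0.84 (SE 0.20, adjusted p = 0.0161) and ftz by 0.84 (SE 0.24, adjusted p = 0.0390), but slp1 (0.61, adjusted p = 0.0670), opa (0.58, adjusted p = 0.223) and slp2 (0.40, SE 0.21, adjusted p = 0.287) did not pass. This count rested on single libraries. It was 0 without HDAC3 shRNA replicates 1 or 3 or rescue K26A replicates 3 or 4, 1 without HDAC3 shRNA replicate 2, 2 without rescue WT replicates 1 or 2, and 7 without rescue K26A replicate 1. No member was called in either pair of replicates alone, where 0.378% (replicates 1 and 2) and 0.165% (replicates 3 and 4) of all genes were, although 9 of 9 were higher at an unadjusted p under 0.05 in replicates 3 and 4 (6.01% of all genes), and 1 of 9 in replicates 1 and 2 (6.41%).

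In rescue HEBI all 9 members passed the adjusted p as higher, where 21.7% of all genes were higher by that rule. The values ran from 0.79 for h (SE 0.20, adjusted p = 0.00486) to 1.09 for slp2 (SE 0.21, adjusted p = 0.000637), and slp2 was also called, where 9.56% of all genes were called higher. odd (0.998, adjusted p = 0.000895), ftz (0.99), slp1 (0.99) and run (0.97) lay just under 2-fold. Leaving out any single library left 7 to 9 past the adjusted p. In replicates 1 and 2 alone 9 of 9 were called, from 1.23 for eve to 1.51 for opa, where 9.76% of all genes were called higher. In replicates 3 and 4 alone 0 were called, where 2.95% of all genes were, and 6 of 9 were higher at an unadjusted p under 0.05 (12.5% of all genes).

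**Figure D3:**
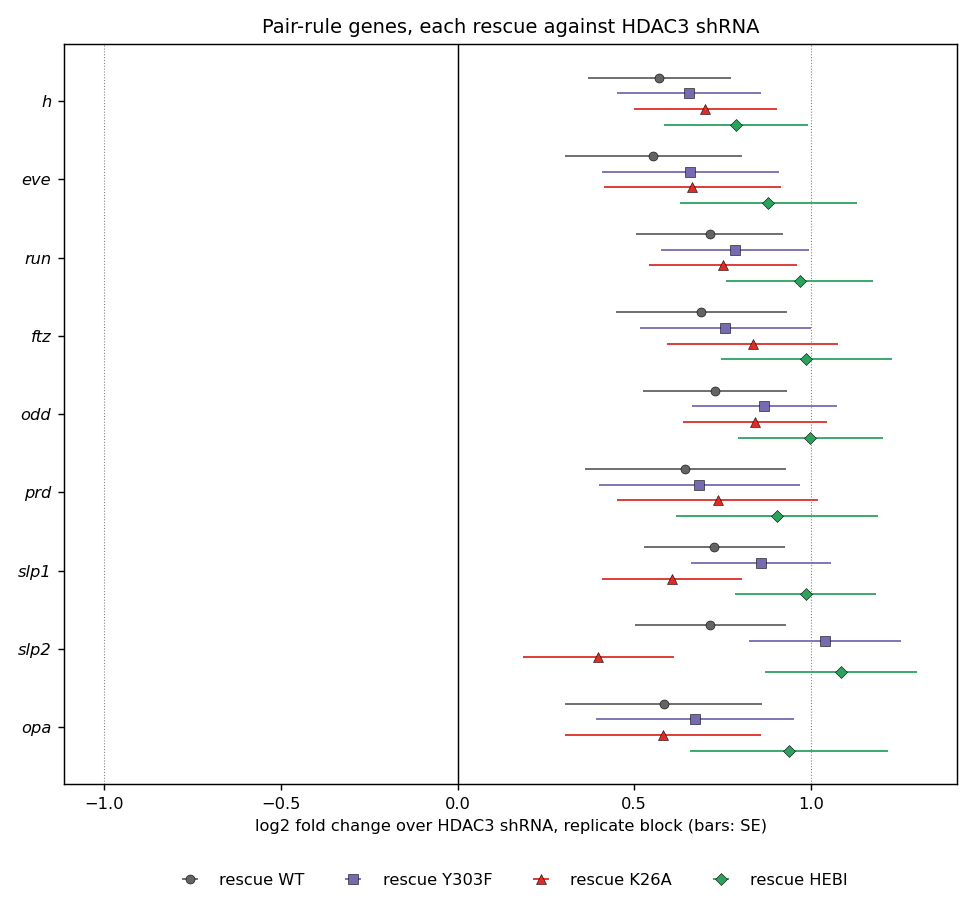
Log2 fold change of each pair-rule gene in the 4 rescue genotypes over HDAC3 shRNA, from the fit with the replicate block (x axis, bars are SE, dotted lines at 2-fold). All 36 values lie above 0, and slp2 has the widest spread between rescues, from 0.40 in K26A to 1.09 in HEBI.

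The mutant rescues were next set against rescue WT. Without the block 0 of 9 members were called in Y303F, K26A or HEBI against WT, in edgeR or in DESeq2, with 0 under an unadjusted p of 0.05, and 0.02%, 0.13% and 0.04% of all genes were called. The block gave 0 of 9 as well, again with 0 under 0.05, where the shares of all genes called were 0.53%, 2.03% and 0.61%. The blocked values ran from 0.039 to 0.32 in Y303F, from -0.32 (slp2) to 0.15 in K26A and from 0.22 to 0.37 in HEBI. HEBI was thus higher than WT in the fitted value of all 9 genes, with adjusted p of 0.360 to 0.645. These p-values do not show that the proteins act alike, since SEs were 0.20 to 0.28.

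Against Control, 0 of 9 members were called in any rescue in either fit, in DESeq2 without the block, or under an unadjusted p of 0.05 in edgeR. Without the block 0.33% of all genes were called in WT, 0.74% in Y303F, 3.44% in K26A and 0.58% in HEBI, and with it 2.01%, 5.85%, 12% and 3.82%. Medians without the block were 0.021 in rescue WT, 0.22 in Y303F, 0.24 in K26A and 0.28 in HEBI, and with the block -0.088, -0.0022, -0.077 and 0.22. The sign of 14 of the 36 values changed with the block, and in rescue K26A 8 of 9 were higher without it and 6 of 9 lower with it. The mean over 4 libraries hides a difference between replicate numbers that was largest in rescue K26A. Its replicates 1 and 2 were below, and its replicates 3 and 4 above, every Control library for 9 of 9 members, a double position held by 3.86% of all genes. In rescue WT 1 of 9 members showed it (0.89% of all genes) and in the other genotypes 0 of 9 (0.95% to 1.12%). The upper position alone was not particular to rescue K26A (13.1% of all genes). Replicates 3 and 4 were above every Control library for 9 of 9 members also in Y303F (15.1%) and HEBI (14.7%), and for 5 of 9 in WT (8.38%).

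For rescue K26A against Control in replicates 1 and 2 alone, slp2 (-1.19, SE 0.24, adjusted p = 0.0101) and opa (-1.38, SE 0.41, adjusted p = 0.0422) were called lower, 2 of 9 members where 7.16% of all genes were. The median of the 9 was -0.92, and eve (-0.95) and slp1 (-0.84) passed the adjusted p without reaching 2-fold. In replicates 3 and 4 alone all 9 fitted values were higher, with a median of 0.61, and 0 were called, where 3.4% of all genes were, with 7 of 9 higher at an unadjusted p under 0.05 (7.92% of all genes). There eve stood at 0.81 (SE 0.30, adjusted p = 0.136) and slp2 at 0.13 (SE 0.21, adjusted p = 0.727), and h at 0.68 (adjusted p = 0.0276) was the one gene past the adjusted p. The CPM of opa in the first pair averaged 55.3 in rescue K26A and 142 in Control, and in the second pair 346 and 231. Blastoderm genes in the K26A libraries summed to 2269 and 1822 CPM in replicates 1 and 2 and to 1488 and 2333 CPM in replicates 3 and 4, and maternal RNAs to 3658, 2963, 1268 and 1038 CPM. Their part in the result was not tested.

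The difference of rescue K26A against Control between replicates 3 and 4 and replicates 1 and 2 was positive for all 9 members, from 1.245 (slp1, SE 0.25, adjusted p = 0.00704) to 1.94 (opa, SE 0.49, adjusted p = 0.0211). It passed the adjusted p for 8 of 9, where 8.99% of all genes did, and h missed it at 1.27 (SE 0.39, adjusted p = 0.0545). This test was chosen after the values had been seen. The number passing fell to 1 without Control replicate 1 or Control replicate 3, to 2 without rescue K26A replicates 2, 3 or 4, to 3 without rescue K26A replicate 1 and to 4 without Control replicate 4.

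**Figure D4:**
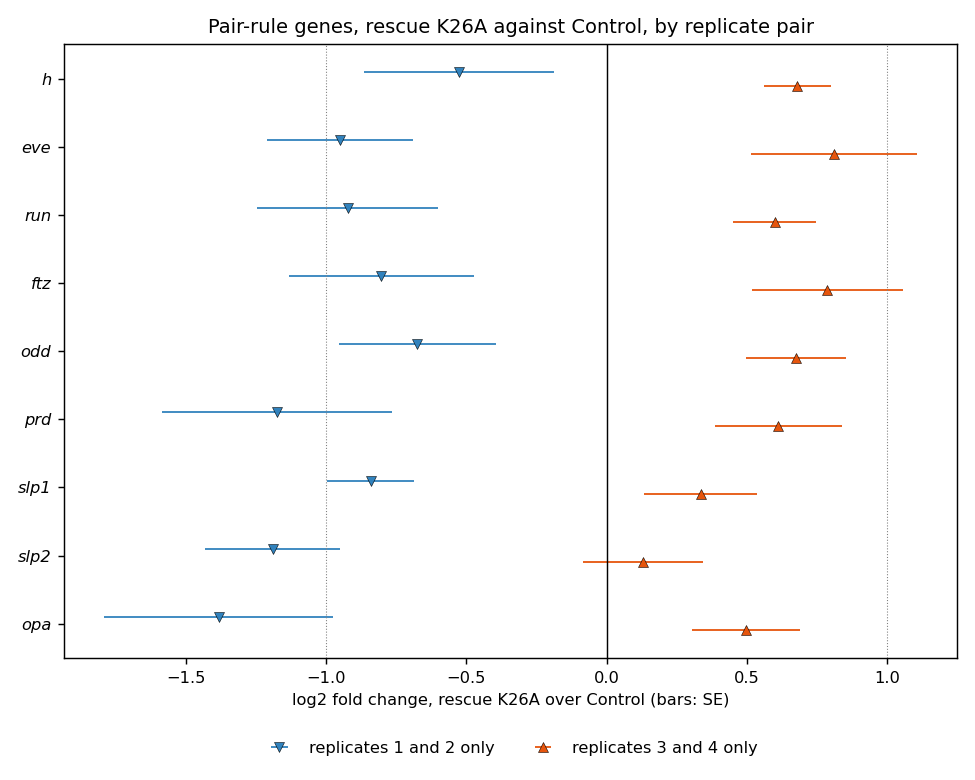
Log2 fold change of each pair-rule gene in rescue K26A over Control, in replicates 1 and 2 alone and in replicates 3 and 4 alone (x axis, bars are SE, dotted lines at 2-fold). The first pair lies below 0 in all 9 genes (median -0.92) and the second pair above 0 (median 0.61).

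The 9 genes were then followed by replicate number. In a fit of genotype and replicate number together, all 9 members differed by number, but so did 84% of all genes, and the members ranked between 814 (slp2) and 4892 (eve) of 10003 by the F statistic. Replicates 3 and 4 were both above replicates 1 and 2 in 6 of 6 genotypes for 8 members and in 5 of 6 for eve, whereas 19% of all genes showed this in every genotype. slp2 changed most, with replicates 3 and 4 averaging 2.85 (Control) to 7.45 times (rescue K26A) the level of replicates 1 and 2. For eve the ratio was 0.981 (Control) to 3.47 times (rescue K26A). For prd the folds ran from 1.87 to 6.74, for opa from 1.63 to 6.26 and for h from 1.38 to 3.31. In all 9 genes the smallest fold was that of Control and the largest that of rescue K26A. Summed over the 9 genes, Control went from 770 and 513 CPM to 990 and 1015 CPM, HDAC3 shRNA from 268 and 230 to 702.5 and 1059 CPM, and rescue K26A from 358 and 308 to 1507 and 1503 CPM.

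**Figure D5:**
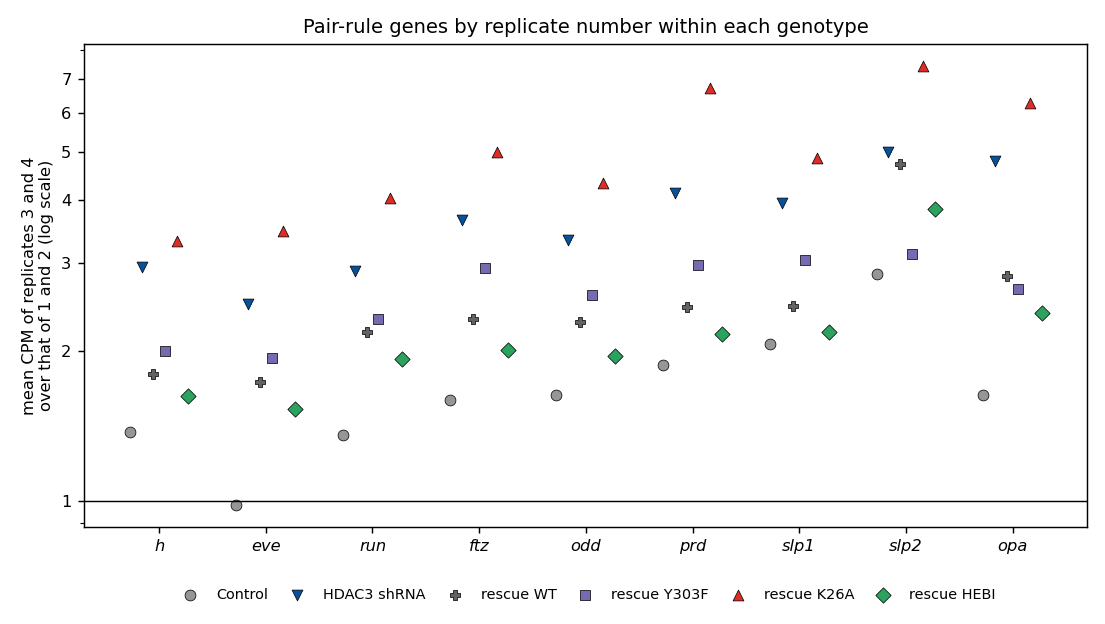
Mean CPM of replicates 3 and 4 divided by that of replicates 1 and 2 (log scale) for each pair-rule gene and genotype. Control has the lowest and rescue K26A the highest point for all 9 genes, and the highest of all is slp2 in rescue K26A at 7.45.

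Ratios of counts within a library, which no scaling of library size can change, showed that the members did not keep fixed proportions. The count of ftz was 1.22 to 1.68 times that of eve in the 12 libraries of replicates 1 and 2 (median 1.43) and 1.90 to 2.34 times in the 12 of replicates 3 and 4 (median 2.10), with no overlap. For prd over eve the ranges were 0.664 to 1.04 and 1.16 to 1.89, again apart. Those of opa over eve (medians 1.73 and 3.27), slp1 over eve (0.941 and 1.51) and slp2 over eve (0.220 and 0.584) shifted in the same direction with some overlap. slp2 also gained on its neighbour slp1, from a median of 0.239 to 0.345. Thus ftz, prd, opa, slp1 and slp2 all took a greater share relative to eve in replicates 3 and 4. The ratios of h, run and odd to eve were not taken. In Control their means in replicates 3 and 4 were 1.38 (h), 1.35 (run) and 1.63 times (odd) those in replicates 1 and 2, where eve stood at 0.981. In Control these folds therefore do not set the later genes apart from the early ones, since odd and opa were both at 1.63. In HDAC3 shRNA, h, eve, run, ftz and odd had folds of 2.48 to 3.66. The later genes prd, slp1, slp2 and opa had 3.95 to 5.02 there. Early genes also lay below later ones in rescue WT and HEBI, but overlapped them in Y303F and K26A. These ratios and folds are descriptions and were not tested.

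The 9 genes moved together from library to library. Over the 24 libraries the 36 pairs correlated at r = 0.837 (eve and slp2) to 0.990 (ftz and odd) in log2 CPM, with a median of 0.959. After genotype and replicate number were taken out, r ran from 0.635 (ftz and slp2) to 0.976 (odd and opa). The points share their libraries and the split by replicate number, so these values are descriptions only. Many other genes followed the same course, since 691 of 9994 (6.91%) had r above 0.9 with the mean standardized profile of the members. The 10 most alike were mira, htl, dan, Fbxl7, sna, Atx-1, CG10035, Doc1, Mettl3 and link, at r = 0.984 to 0.990 over 24 libraries. mira encodes the neuroblast adaptor Miranda, htl an FGF receptor of the mesoderm, sna the Snail repressor and Doc1 a T-box factor of the dorsal ectoderm.

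The layers above and below the pair-rule genes were read from lists beside them. In the counts that follow, for HDAC3 shRNA against Control with the block, 26.9% of all genes passed as lower and 27% as higher. By this rule 8 of 10 gap and head gap genes passed the adjusted p as lower, with a median of -0.71 over the list, and knrl was called (-1.28, adjusted p = 0.00104). btd and kni, at -0.97 and -0.93, and gt at -0.92 came next. Of the maternal inputs, a list that shares bcd and osk with the maternal RNAs cleared early, 4 of 7 passed as higher (median 0.58). These were bcd (0.87), the anterior morphogen, pum (0.82), a translational repressor, tor (0.58), the terminal receptor, and cad (0.54), the posterior determinant. Downstream, 10 of 11 genes of the segment polarity list passed as lower (median -0.73), and slou (-2.09, adjusted p = 0.000379), gsb-n (-1.28) and H15 (-1.02) were called. slou is on this list but is not a classical segment polarity gene. The 3 called genes had as few as 4, 6 and 1 counts in a library, against 28 or more for the others listed. en and hh, targets of the pair-rule code, were at -0.72 and -0.73 (adjusted p = 0.0106 and 0.0133). Without the block only slou of these 3 lists was called (-1.95, adjusted p = 0.0256), a gene with as few as 4 counts in a library. Under an unadjusted p of 0.05 were 0 of 7, 2 of 10 and 1 of 11 in the maternal, gap and segment polarity lists.

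Of relatives and neighbours of the members, 6 of 10 tested passed as lower with the block (median -0.69), among them the odd relatives sob (-0.74, adjusted p = 0.0185) and bowl (-0.78, adjusted p = 0.00531), the h relative E(spl)mbeta-HLH (-0.99, adjusted p = 0.00180) and Scr next to ftz (-0.65, adjusted p = 0.0339). lz, a Runt-domain gene of blood and eye, was called in both fits (-2.07 without the block, adjusted p = 0.00387), with as few as 2 counts in a library. Of the 2 striped Toll receptor genes that were tested, 0 passed with the block, 0 without it and 0 were under an unadjusted p of 0.05. Germ layer markers also passed as lower in 8 of 9 (median -0.75), with twi called at -1.03, so that a lower level with the block was not limited to genes of the anterior-posterior axis.

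Partners of the pair-rule proteins included 1 gene that went strongly the other way. ftz-f1, whose nuclear receptor product is the cofactor of Ftz, was at 1.38 in HDAC3 shRNA against Control with the block (SE 0.12, adjusted p = 1.27e-07) and was called higher. Without the block it was at 1.33 with adjusted p = 0.162. It was lower than in HDAC3 shRNA in rescue Y303F (-1.28, adjusted p = 1.27e-06) and rescue HEBI (-1.31, adjusted p = 2.89e-07), both called, and in rescue WT (-0.81, adjusted p = 0.000180) and K26A (-0.76, adjusted p = 0.000962) it passed the adjusted p within 2-fold. lilli, a maternal gene of the AFF family, rose by 0.77 (adjusted p = 4.39e-05), zld, the activator of the zygotic genome, by 0.49 (adjusted p = 0.0103), and the corepressor genes CtBP and gro by 0.27 and 0.26 (adjusted p = 0.00651 and 0.0255), while the Sox gene D fell by 0.68 (adjusted p = 0.0199). Bgb and Bro, which partner with Runt, and Trl, the GAGA factor, did not pass, at -0.070, -0.28 and 0.18. Of the 6254 exon bases of Trl, 4865 are shared with CG42507 and Tsen34, and its lowest library held 77 counts. In all, 5 of 9 genes of this list passed as higher, where 27% of all genes did, and 1 as lower, and all 9 differed by replicate number, as did 84% of all genes.

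The lists above and below were also read in the rescues. With the block against HDAC3 shRNA, segment polarity genes passed as higher in 7 of 11 in rescue WT, 5 in Y303F, 0 in K26A and 7 in HEBI, and gap genes in 4 of 10, 6, 3 and 9, where 16.8%, 17.7%, 3.68% and 21.7% of all genes passed as higher. Called among them were slou and H15, both low in counts, in rescue WT. In rescue HEBI the called genes were kni, btd, slou, en and mid, with en at 1.04 (adjusted p = 0.00117). Maternal inputs passed as lower in 3 of 7, 5, 2 and 4, where 15.3%, 18.5%, 4.36% and 20.7% of all genes did. At 0 of 11 in rescue K26A, 1 segment polarity gene was under an unadjusted p of 0.05. Summed over that list, rescue K26A stood at 259, 202, 1776 and 1019 CPM in replicates 1 to 4. HDAC3 shRNA stood at 229, 206, 1130 and 975 CPM. Here too the number passing does not rank the size of a rise. Since genotypes share the HDAC3 shRNA libraries, the numbers passing are not independent.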

How the data were processed

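RNA-seq of 24 libraries of whole 2 to 4 h embryos was used, 4 biological replicates for each of 6 genotypes, prepared per the labels with a stranded total RNA kit. The values are raw counts per gene, which the authors made by mapping reads to dm6 with STAR and counting them with featureCounts before they were deposited. For versions, strand setting and annotation release the sources used here give nothing. Samples were mapped to columns by their labels, and 0 columns belonged to no sample. Of 17559 identifiers 17253 had a current symbol. Members were found by symbol, 8 by the current one and h by an older one. The member set, defined by name alone, the 11 other gene lists and the tests were nonetheless chosen with earlier results of these data known.

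Counts were analysed in R 4.3.3 with edgeR 4.0.16. Genes with low counts were removed (filterByExpr by genotype), which left 10003, and library totals were scaled by TMM (factors of 0.862 to 1.23). Genotypes were compared in 1 quasi-likelihood fit over all 24 libraries, without a block, and p-values were Benjamini-Hochberg adjusted over all genes tested. An adjusted p of 0.05 or less "passed", and was "called" with a change of 2-fold or more as well, the study's thresholds. SEs are the log2 fold change divided by the square root of F. Profiles were compared in log2 CPM with a prior count of 2. DESeq2 1.42.0 served as an alternative, and the scripts were tested on simulated data. p-values measure the spread between these libraries. Residuals of same-numbered libraries from their genotype means correlated at 0.184 to 0.797 (60 pairs, median 0.615), and 23 of 24 libraries correlated best with one of their own number, and every pair's r exceeded 0.1. On this ground the libraries were treated as paired by number, and a fit with the replicate number as a block is given beside each comparison. No replicates of a genotype agreed within sampling noise (36 pairs, lowest chi-square of 35.0 per gene).

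All 9 members were to be named, and of the lists up to 5 genes per list that were called. Other list genes named were chosen after their values were seen, as were the counts at the adjusted p with the block and the test of the K26A difference between replicate pairs. The list symbols nos, wg, 18w, vas and wupA were not analysed here. Alternatives were DESeq2 size factors, unscaled library totals, no filter, DESeq2, only the 2 genotypes compared, the replicate block, replicates 1 and 2 or 3 and 4 alone, and leaving out each library.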

Additional observations from a re-analysis of the deposited data

Results flagged for a closer look

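The change of rescue K26A against Control differed between replicates 3 and 4 and replicates 1 and 2 in 8 of 9 pair-rule genes by an interaction test in edgeR's quasi-likelihood fit over all 24 libraries, with Benjamini-Hochberg adjustment over 10003 genes. The difference on the log2 scale, replicates 3 and 4 minus replicates 1 and 2, was 1.82 for eve (adjusted p = 0.0143), 1.65 for ftz (adjusted p = 0.0376), 1.58 for run (adjusted p = 0.0178) and 1.41 for odd (adjusted p = 0.0217). For the later genes it was 1.85 for prd (adjusted p = 0.0324), 1.245 for slp1 (adjusted p = 0.00704), 1.39 for slp2 (adjusted p = 0.0135) and 1.94 for opa (adjusted p = 0.0211). h did not pass, at 1.27 (adjusted p = 0.0545). The same test passed 8.99% of all genes. In all 9 genes, h included, both libraries of replicates 1 and 2 of rescue K26A were below all 4 Control libraries. Both of replicates 3 and 4 were above them, a double position held by 3.86% of all genes. It restates the values that entered the test. For HDAC3 shRNA against Control the corresponding test gave 0.82 to 1.56, a range that overlaps that of rescue K26A. In edgeR it passed 0 of 9 genes and 0.03% of all genes, and 9 of 9 had an unadjusted p under 0.05, as did 8.38% of all genes in this direction. Between rescue K26A and HDAC3 shRNA themselves the same test gave 0.17 (h) to 0.70 (prd) with adjusted p of 0.863 to 0.997 in edgeR, and 0 of 9 had an unadjusted p under 0.05.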

How the results depend on the processing

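Without the block, 0 of 9 pair-rule genes were called in each of the 12 comparisons between genotypes, and DESeq2's size factors, unscaled library totals, no filter on low counts, DESeq2 as the test and leaving out any of the 24 libraries (0 to 0) also gave 0. In replicates 1 and 2 alone the count was 9 for HDAC3 shRNA against Control, 2 for rescue K26A against Control, 1 for rescue WT against HDAC3 shRNA, 3 for rescue Y303F against HDAC3 shRNA and 9 for rescue HEBI against HDAC3 shRNA. With the replicate block, 1 gene (slp2) was called in rescue Y303F and 1 (slp2) in rescue HEBI against HDAC3 shRNA, and the block changed no other call. Among the fold changes of HDAC3 shRNA against Control and of the rescues against HDAC3 shRNA, reversed values were that of eve in HDAC3 shRNA against Control, 0.014 in replicates 3 and 4 alone, and that of slp2 in rescue K26A against HDAC3 shRNA, which ran from -0.040 without rescue K26A replicate 3 to 0.95 without HDAC3 shRNA replicate 3. With the block the sign also changed for 14 of 36 values of the rescues against Control and 2 of 27 of the mutant rescues against rescue WT, none of which passed in either fit. The causes were not tested.

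Leaving out 1 library at a time changed the numbers past the adjusted p with the block, from 4 to 9 for HDAC3 shRNA against Control (5 without Control replicate 2), and against HDAC3 shRNA from 1 to 9 for rescue WT, 4 to 9 for Y303F, 0 to 7 for K26A and 7 to 9 for HEBI. The number passing the test of the difference between replicate pairs was 0 to 1 for HDAC3 shRNA and 1 to 9 for rescue K26A against Control, where a library left alone in a cell is assumed to vary like the others. Replicate number passed for 9 of 9 genes in every fit. Unscaled library totals moved the median of all genes in HDAC3 shRNA against Control from 0.013 to -0.20 and that of the 9 members from -0.54 to -0.75. With 2 libraries per genotype and replicate pair, the values within pairs rest on few samples.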
